A study of Mus musculus with 8 samples.

Results

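The genes described here encode lysine acetyltransferases other than Gcn5 and PCAF, the p160 nuclear receptor coactivators, the zinc-dependent histone deacetylases (HDACs), the sirtuins, and corepressor proteins that work with them. The list holds 33 genes, and 32 of them had a transcript cluster (the set of probes that the array summarises into 1 value) annotated to that gene alone, out of 19938 genes measured in this way. Ncor1, which encodes the scaffold of a corepressor complex with HDAC3, had no such cluster and is not analysed here. The tissue was the gastrocnemius, a calf muscle of mixed fibre type, from male mice aged 6 months that ate a chow diet and had been fasted for 5 h. The knockout group (Gcn5skm-/-) held 4 animals that carried HSAcre Tg/0, a Cre recombinase driven by the human skeletal actin promoter of muscle fibres, together with Gcn5 L2/L2, the floxed gene on both copies. The wild-type group (Gcn5skm+/+) held 4 animals with HSAcre 0/0 and the same Gcn5 L2/L2 alleles. Only the knockouts carried Cre, so effects of Cre and of the deletion cannot be told apart. Cells of the muscle other than fibres keep the gene. A single Affymetrix array was run for each animal, and having 8 arrays in all limits how precise a difference can be.

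Acetyltransferases add acetyl groups from acetyl-CoA to lysines of histones and other proteins, which opens chromatin and serves as a docking site for bromodomain proteins. HDACs and sirtuins remove them. The zinc-dependent HDACs fall into classes that differ in partners and location, and the class IIa enzymes in muscle bind MEF2 transcription factors and leave the nucleus when nerve activity and exercise activate calcium-dependent kinases. Sirtuins consume NAD and link deacetylation to the energy state of the cell.

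Kat2a, which encodes Gcn5, checks the labels. It measured 5.81, 5.84, 5.79 and 5.73 on the log2 scale in knockouts 1 to 4, against 6.50, 6.46, 6.45 and 6.43 in wild types 1 to 4. The groups were far apart, with a difference of -0.66 (95% interval -0.83 to -0.50, limma adjusted p = 0.0319). This call did not survive leaving out any 1 knockout, nor wild type 3 or 4 (limma adjusted p from 0.0619 to 0.137), while the difference stayed between -0.68 and -0.64. All differences below are knockout minus wild type in log2 units, and each 95% interval is that of 1 gene, with no allowance for the number of genes. Array medians lay between 4.61 and 4.72. Wild type 2 resembled the other arrays least (mean correlation 0.987, against 0.989 to 0.992), so the values without it are given where it decides a result. In whole muscle, fewer cells of a type and less RNA per cell cannot be told apart.

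None of the 32 measured genes passed a 5% false discovery rate in limma (adjusted p from 0.869 to 0.998), where 0.0150% of all genes passed, and 0 passed at 10%, where 0.0802% of all genes did. At an unadjusted limma p under 0.05 the count was again 0 of 32, against 5.73% of all genes. Differences ran from -0.20 for Sirt7 to 0.20 for Kat8. Of the 32 genes 10 were higher and 22 lower, with a median of -0.03; over all genes 54.7% were lower and the median was -0.01. The median size of a difference, leaving out its sign, was 0.081 log2 units for the 32 genes and 0.081 for all genes.

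The intervals were narrow. For all 32 genes the 95% interval lay between -0.42 and 0.43. On the array's scale in whole muscle, a change beyond 1.34-fold in either direction lay outside the interval of each gene. A change within fibres alone could be larger. The targeted gene Kat2a measured 0.63-fold on the same scale. Intervals within 0.5 log2 units of 0 on both sides were also found for 90.7% of all genes. The standard error of a difference was 0.079 to 0.136, and the median SD within groups was 0.124 for the 32 genes and 0.150 for all genes. The interval of Kat2a lay below that of every one of the 32 genes, since its upper bound was -0.50.

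**Figure D1:**
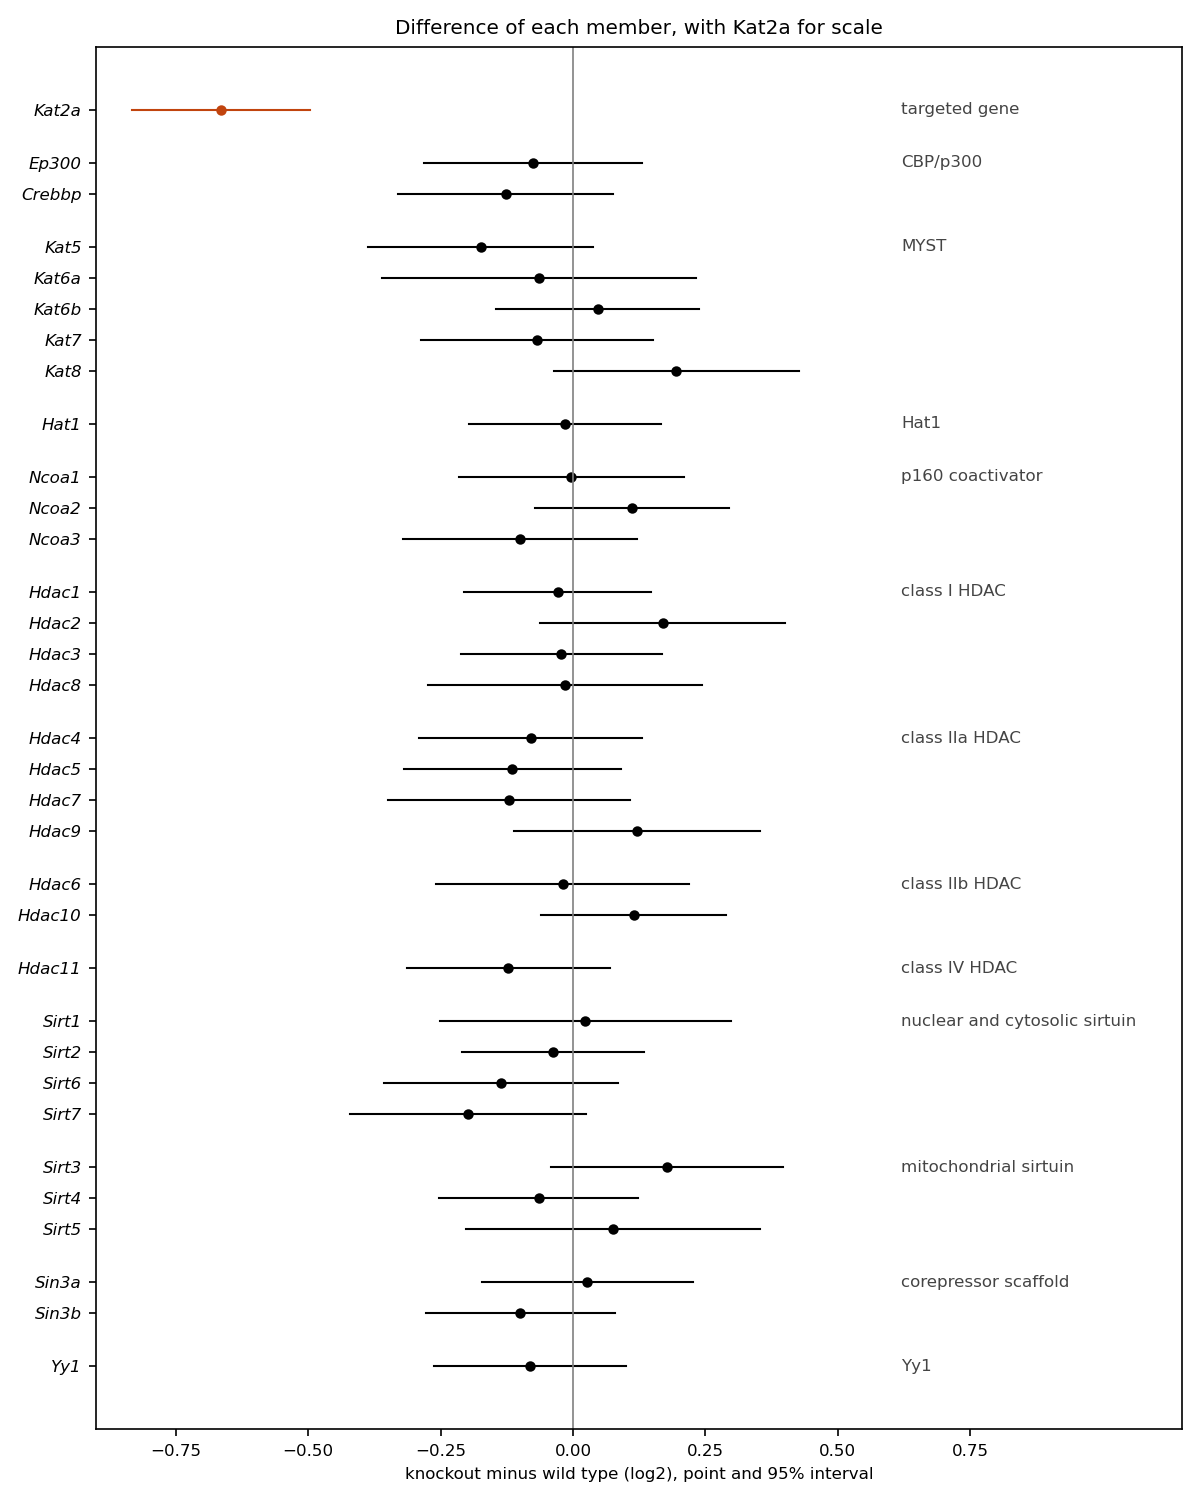
Difference of each measured gene between knockout and wild type (horizontal axis, log2 units), with its 95% interval as a line, grouped by enzyme class, and Kat2a at the top for scale. The intervals of all 32 genes cross 0 and lie between -0.42 and 0.43, while that of Kat2a runs from -0.83 to -0.50.

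The paired coactivators p300 and CBP acetylate histones at enhancers and serve many transcription factors. Both genes measured lower in knockouts and missed the threshold. Crebbp, which encodes CBP, measured 8.80, 8.74, 8.64 and 8.85 in knockouts 1 to 4, against 8.85, 8.98, 8.71 and 9.0 in wild types 1 to 4. The groups overlapped, since wild type 3 lay below knockouts 1, 2 and 4 (difference -0.13, 95% interval -0.33 to 0.08, limma adjusted p = 0.881). Ep300 averaged 7.86 ± 0.11 in knockouts and 7.93 ± 0.12 in wild types (SD, n = 4 each), a difference of -0.08 that was -0.02 without wild type 2.

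The MYST family differed in both directions. Kat8 encodes MOF, which acetylates histone H4 within the MSL and NSL complexes, and had the most positive difference of all 32 genes. It measured 7.19, 6.97, 6.91 and 7.15 in knockouts 1 to 4, against 6.96, 6.87, 6.99 and 6.62 in wild types 1 to 4. Knockouts 1 and 4 were above every wild type, knockouts 2 and 3 were not, and wild type 4 was the lowest array (difference 0.20, 95% interval -0.04 to 0.43, limma adjusted p = 0.875). Without wild type 4 the difference was 0.12.

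Kat5 encodes Tip60, the catalytic subunit of the NuA4 complex. It measured 6.24, 6.29, 6.13 and 6.30 in knockouts 1 to 4, against 6.30, 6.65, 6.34 and 6.35 in wild types 1 to 4. All 4 knockouts lay below all 4 wild types, by only 0.0017 at the closest point, and wild type 2 stood above the rest (difference -0.17, 95% interval -0.39 to 0.04, limma adjusted p = 0.876). Without wild type 2 the difference was -0.10. Values of the groups did not overlap for 2 of the 32 genes, Kat5 and Hdac10, where 3.62% of all genes had no overlap.

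The other MYST genes lay closer to 0. Kat6a (MOZ) averaged 7.05 ± 0.15 in knockouts and 7.12 ± 0.29 in wild types, and its difference of -0.06 was 0.08 without wild type 2, which measured 7.55. Its paralog Kat6b (MORF) differed by 0.05, and by 0.10 without wild type 2. Kat7, which encodes HBO1, an enzyme that acts at replication origins and gene bodies, differed by -0.07, and by 0.01 without wild type 2. Hat1 acetylates newly made histone H4 before its assembly into chromatin and differed by -0.02 (95% interval -0.20 to 0.17).

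The p160 coactivators bind hormone-activated nuclear receptors and bring in CBP and p300. Their 3 genes had differences on both sides of 0. Ncoa2 (also called GRIP1) measured 6.79, 6.74, 6.73 and 6.88 in knockouts 1 to 4, against 6.56, 6.77, 6.67 and 6.69 in wild types 1 to 4. Knockouts 1 and 4 were above all wild types, and wild type 2 lay above knockouts 2 and 3 (difference 0.11, 95% interval -0.07 to 0.29, limma adjusted p = 0.889), and without wild type 1 the Ncoa2 difference was 0.07. Ncoa1 (SRC-1) differed by -0.0032, the smallest difference of the 32 genes, and Ncoa3 by -0.10, with -0.04 in the absence of wild type 2.

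Class I HDACs are nuclear enzymes, and HDAC1 and HDAC2 share the SIN3, NuRD and CoREST complexes. Hdac2 measured 7.56, 7.49, 7.46 and 7.70 in knockouts 1 to 4, against 7.35, 7.65, 7.20 and 7.33 in wild types 1 to 4. Wild type 2 was the one wild type that overlapped the knockouts, and the 3 others lay below all 4 knockouts (difference 0.17, 95% interval -0.06 to 0.40, limma adjusted p = 0.876). On leaving out 1 array the difference ranged from 0.11 without wild type 3 to 0.26 without wild type 2. The 95% interval in the refit without wild type 2 was 0.06 to 0.45. Hdac2 missed the threshold over all genes there too (limma adjusted p = 0.670). The interval also lay above 0 after quantile normalization (0.01 to 0.39), cyclic loess (0.02 to 0.38) and array weights (0.02 to 0.41). The same held without wild type 2 and knockout 4 together (0.01 to 0.41). In the other alternatives the Hdac2 interval crossed 0, and Hdac2 passed the threshold in no alternative.

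The other class I genes lay near 0. Hdac1 averaged 5.98 ± 0.04 in knockouts and 6.00 ± 0.08 in wild types, a difference of -0.03. A second cluster annotated to Hdac1 differed by 0.11, the opposite sign; its lowest array was wild type 4 at 5.44, while the other 7 arrays lay between 5.80 and 5.94. Hdac3, the catalytic subunit of the NCoR and SMRT complexes, averaged 8.92 ± 0.09 in knockouts and 8.94 ± 0.09 in wild types (difference -0.02, 95% interval -0.21 to 0.17). Hdac8, an X-linked enzyme that deacetylates cohesin, differed by -0.02.

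Class IIa HDACs repress MEF2 target genes of the muscle fibre. Hdac4, Hdac5 and Hdac7 measured lower in knockouts and Hdac9 higher, and 0 of these 4 genes passed. Hdac5 averaged 6.60 ± 0.09 in knockouts and 6.72 ± 0.13 in wild types (difference -0.11, 95% interval -0.32 to 0.09). The difference was -0.06 without wild type 2, the highest array at 6.89. Hdac4, which is known for its part in the response of fibres to denervation, averaged 7.52 ± 0.14 in knockouts and 7.60 ± 0.10 in wild types (difference -0.08, and -0.14 to -0.05 on leaving out 1 array), and its second cluster differed by -0.14. Hdac7, which is known from endothelial cells, differed by -0.12 (95% interval -0.35 to 0.11); without knockout 4, its lowest array at 6.43, the difference was -0.04. Hdac9 averaged 5.85 ± 0.16 in knockouts and 5.73 ± 0.15 in wild types (difference 0.12, 95% interval -0.11 to 0.35), and the difference was 0.06 without knockout 2 and 0.07 without wild type 4.

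Hdac10 was the other gene whose groups did not overlap. It encodes a class IIb enzyme that deacetylates polyamines, and measured 5.70, 5.58, 5.60 and 5.62 in knockouts 1 to 4, against 5.57, 5.42, 5.53 and 5.53 in wild types 1 to 4. Every knockout was above every wild type, with 0.013 between the nearest arrays of the groups (difference 0.11, 95% interval -0.06 to 0.29, limma adjusted p = 0.877). Hdac6, the cytoplasmic tubulin deacetylase of the same class, differed by -0.02, and its wild types spread more widely (5.00 to 5.55) than its knockouts (5.24 to 5.30).

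Hdac11, the class IV enzyme, removes long fatty acyl groups from lysines. It measured 5.43, 5.35, 5.32 and 5.21 in knockouts 1 to 4, against 5.31, 5.47, 5.49 and 5.53 in wild types 1 to 4. Wild types 2, 3 and 4 lay above all knockouts, and wild type 1 lay below 3 of them (difference -0.12, 95% interval -0.31 to 0.07, limma adjusted p = 0.880).

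Of the 4 sirtuins of the nucleus and cytosol 3 measured lower in knockouts, and 0 passed. Sirt7, a nucleolar sirtuin linked to transcription of ribosomal RNA genes, had the most negative difference of the 32 genes. It measured 4.50, 4.38, 4.59 and 4.14 in knockouts 1 to 4, against 4.65, 4.57, 4.54 and 4.65 in wild types 1 to 4. Knockouts 1, 2 and 4 lay below all wild types, and knockout 3 lay above wild types 2 and 3 (difference -0.20, 95% interval -0.42 to 0.02, limma adjusted p = 0.869). Sirt7 was also the dimmest of the 32 genes, and 1 of 2, with Hdac8, whose mean lay below the median of all genes (4.98); RMA compresses differences of dim transcripts. Knockout 4 was its lowest array, and without that array the difference was -0.11. Without knockout 3, its highest knockout, the difference was -0.26 (95% interval -0.49 to -0.03, limma adjusted p = 0.984).

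Sirt6, a chromatin-bound sirtuin that acts on histone H3, measured 6.34, 6.53, 6.27 and 6.47 in knockouts 1 to 4, against 6.37, 6.73, 6.61 and 6.44 in wild types 1 to 4. Knockouts 2 and 4 lay within the range of the wild types, and the difference of -0.14 (95% interval -0.36 to 0.09, limma adjusted p = 0.887) was -0.07 without wild type 2. Sirt1, the sirtuin that deacetylates PGC-1alpha, the coactivator that Gcn5 is known to acetylate, averaged 5.46 ± 0.08 in knockouts and 5.44 ± 0.28 in wild types. Wild type 2 measured 5.86 and the other wild types 5.27 to 5.34, below every knockout, so that the Sirt1 difference of 0.02 was 0.16 without wild type 2 (95% interval -0.02 to 0.34, limma adjusted p = 0.714). Sirt2, a cytosolic tubulin deacetylase, averaged 8.95 ± 0.03 in knockouts and 8.98 ± 0.06 in wild types (difference -0.04).

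Mitochondrial sirtuins act on enzymes of oxidative metabolism. Sirt3, the main deacetylase of the mitochondrial matrix, measured 5.63, 5.92, 5.81 and 5.55 in knockouts 1 to 4, against 5.48, 5.46, 5.61 and 5.64 in wild types 1 to 4. Knockouts 2 and 3 stood above all other arrays and knockouts 1 and 4 lay among the wild types (difference 0.18, 95% interval -0.04 to 0.40, limma adjusted p = 0.876). On leaving out 1 array the Sirt3 difference ranged from 0.11 without knockout 2 to 0.24 without knockout 4 (limma adjusted p = 0.976 for the second). Sirt5, which removes succinyl and malonyl groups, was also highest among the knockouts in arrays 2 and 3 (5.87 and 5.80), but wild type 3 was higher still at 5.90, and its difference of 0.08 was -0.01 without wild type 2. Sirt4, another matrix enzyme, differed by -0.06, and by -0.12 without wild type 2.

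Fibre types differ in mitochondrial content, and slow-fibre markers varied between animals. Of 8 slow-fibre genes 7 were higher in knockouts (median 0.42). An unadjusted limma p under 0.05 was found for 0 of them, against 5.73% of all genes. The mean of these 8 genes was 7.44, 8.62, 9.06 and 5.51 in knockouts 1 to 4. It was 6.33, 8.37, 6.39 and 8.23 in wild types 1 to 4. Among the knockouts, numbers 2 and 3 had both the higher slow-fibre values and the higher Sirt3 and Sirt5 values. Among the wild types neither Sirt3 nor Sirt5 ordered the animals in the same way. Wild type 2 had the highest slow-fibre mean of its group and the lowest Sirt5 value (5.35). The part of fibre type in the Sirt3 and Sirt5 differences was not tested.

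**Figure D2:**
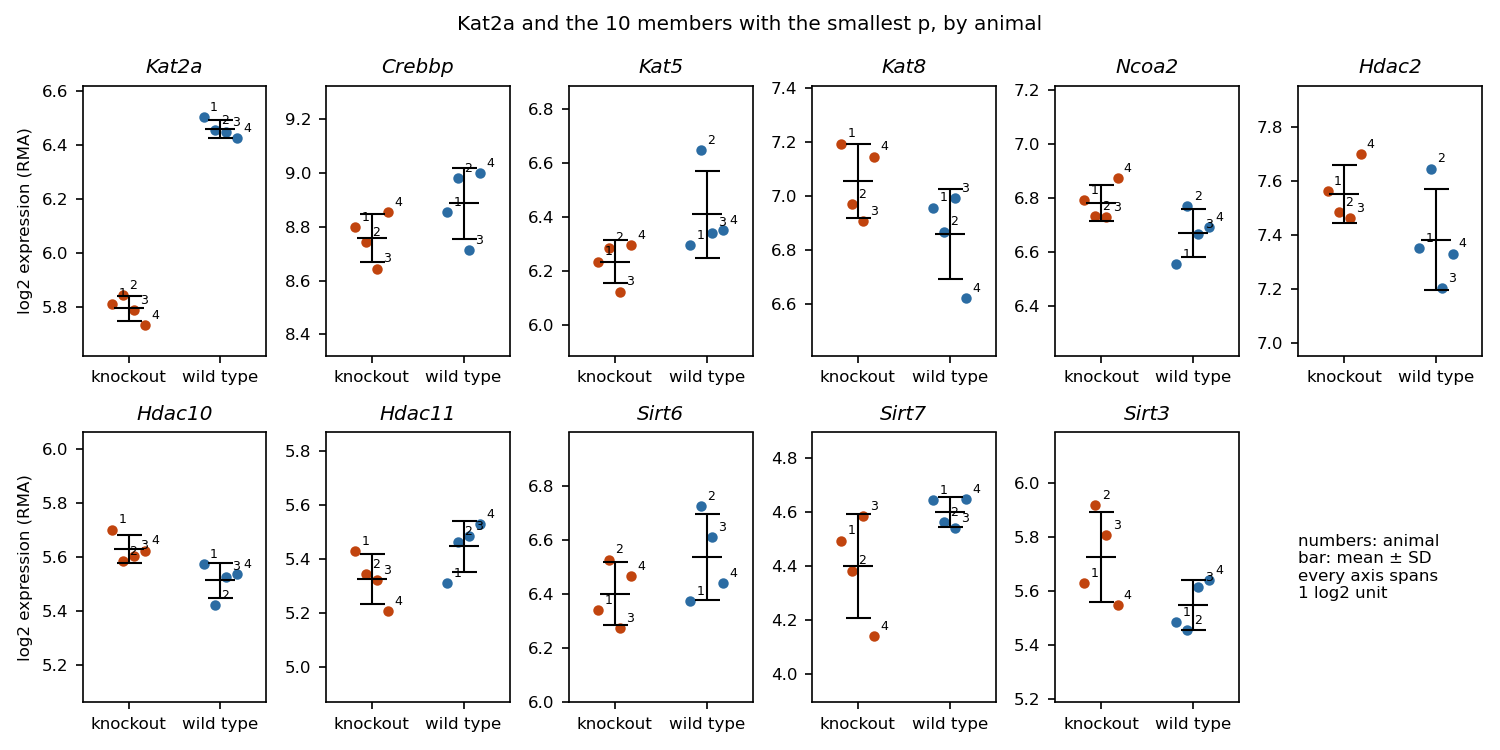
Log2 expression of Kat2a and of the 10 measured genes with the smallest p, 1 point per animal (numbered), knockout on the left and wild type on the right, with mean ± SD; every vertical axis spans 1 log2 unit. Kat2a separates the groups widely, Kat5 and Hdac10 by 0.0017 and 0.013 at the closest point, and the other 8 genes overlap.

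SIN3 proteins are scaffolds that hold HDAC1 and HDAC2 on chromatin. Sin3a averaged 6.12 ± 0.12 in knockouts and 6.09 ± 0.09 in wild types (difference 0.03), and Sin3b 5.98 ± 0.05 in knockouts and 6.08 ± 0.08 in wild types (difference -0.10, 95% interval -0.28 to 0.08). For Sin3b 3 of the 4 knockouts lay below every wild type, and the difference was -0.06 without wild type 2.

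Yy1 encodes a zinc finger factor that can activate or repress genes, binds HDACs, and is itself acetylated by p300 and PCAF. It measured between 7.63 and 7.69 in knockouts and between 7.60 and 7.83 in wild types. The difference was -0.08 (95% interval -0.26 to 0.10, limma adjusted p = 0.925), and -0.05 without wild type 2.

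The core letters of the YY1 motif, AANATGGC, were searched for on both strands of RefSeq promoter windows of build GRCm38.p6 (250 bases before to 50 after a gene's start; no other motif was searched for). Windows were given for 27 of the 33 genes, and 5 of their 38 windows held the letters (13.2%), against 6.05% of all 32851 windows. The match lay before the start in Kat7 and Sirt2, and after it in Ncoa1, Ncor1 and Sin3b. The stretches before the start are shown because Yy1 and the genes with its motif are measured here side by side. Both are written 5′ to 3′ along the gene's own strand with the motif in capitals, Kat7 from chr11:95310297-95310356 on the minus strand and Sirt2 from chr7:28766628-28766687 on the plus strand.
Kat7: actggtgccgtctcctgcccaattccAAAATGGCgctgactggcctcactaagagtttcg
Sirt2: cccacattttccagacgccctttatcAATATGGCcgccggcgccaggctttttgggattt
The motif began 84 bases before the start of Kat7 and 98 bases before that of Sirt2. Kat7 and Sirt2 differed by -0.07 and -0.04 between knockout and wild type, beside -0.08 for Yy1. Ncoa1 and Sin3b, with the match after the start, differed by -0.0032 and -0.10. Without wild type 2 the differences of Kat7 and Ncoa1 were 0.01 and 0.02. All of these genes missed the threshold. A match of letters does not show that YY1 binds there.

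Many of these genes were high or low together in single animals of both groups. Whether this pattern is apart from genotype was not tested. Wild type 2 held the highest of all 8 values for 14 of the 32 genes, against 24.5% of all genes. The genes were Ep300, Kat5, Kat6a, Kat6b, Kat7, Ncoa3, Hdac3, Hdac5, Hdac7, Sirt1, Sirt2, Sirt6, Sin3b and Yy1. The same array was lowest for 5 of the 32 genes, a smaller share than the 21.1% of all genes. They were Hdac6, Hdac10, Sirt3, Sirt4 and Sirt5. The median deviation of wild type 2 from the gene means was 0.08 over the 32 genes and 0.01 over all genes. Among the knockouts, animal 4 was the highest for 17 of the 32 genes (28.1% of all genes). Knockout 3 was the lowest of all 8 arrays for 8 of the 32 genes (12.7% of all genes). The median deviations of knockouts 4 and 3 were 0.03 and -0.06 over the 32 genes, against -0.003 and -0.011 over all genes.

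**Figure D3:**
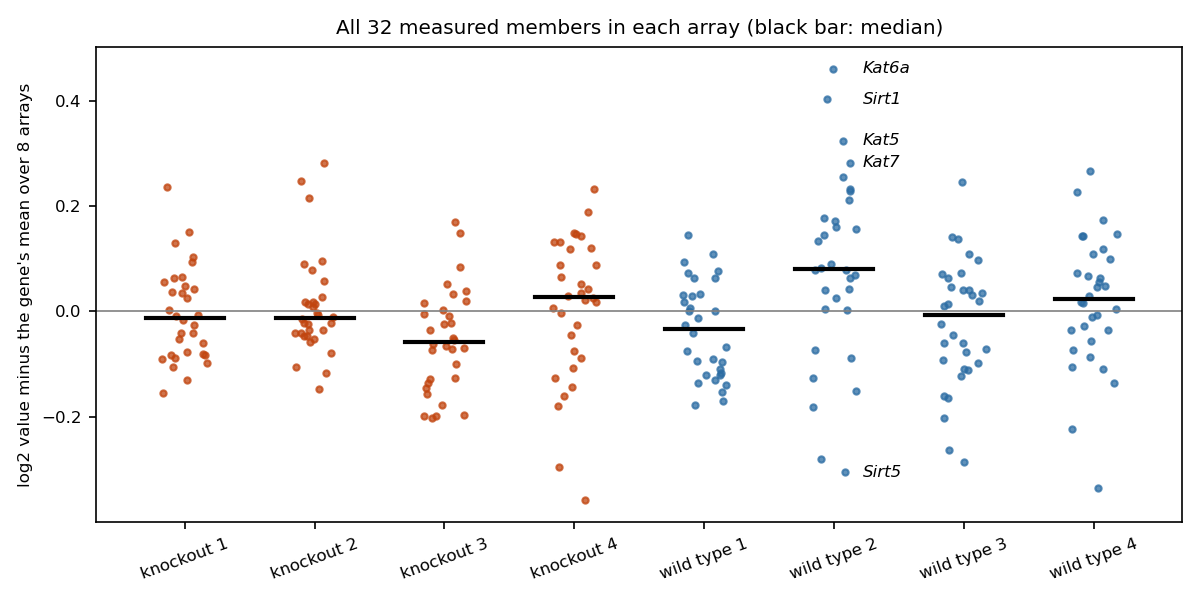
Deviation of each of the 32 genes from its own mean over the 8 arrays (vertical axis, log2 units), 1 point per gene, for knockouts on the left and wild types on the right, with the median as a black bar. Wild type 2 has the highest median (0.08) and the widest spread, with Kat6a and Sirt1 at the top and Sirt5 at the bottom.

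Leaving out wild type 2 left 13 genes higher and 19 lower, against 10 and 22 with all arrays, and moved the median of the 32 differences to -0.02. In that refit Kat6a, Kat7, Ncoa1 and Hdac3 turned from negative to positive and Sirt5 from positive to negative. Hdac2 was the only one of the 32 genes with an unadjusted limma p under 0.05 there, against 7.00% of all genes. Without wild type 2 and knockout 4 together, 11 genes were higher and 21 lower. After quantile or cyclic loess normalization Ncoa1 and Hdac3 lay above 0, as did Hat1 after cyclic loess. Over the 8 refits that each left out 1 array, 10 of the 32 genes changed sign, and in each of these refits 0 of 32 passed a 5% false discovery rate.

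**Figure D4:**
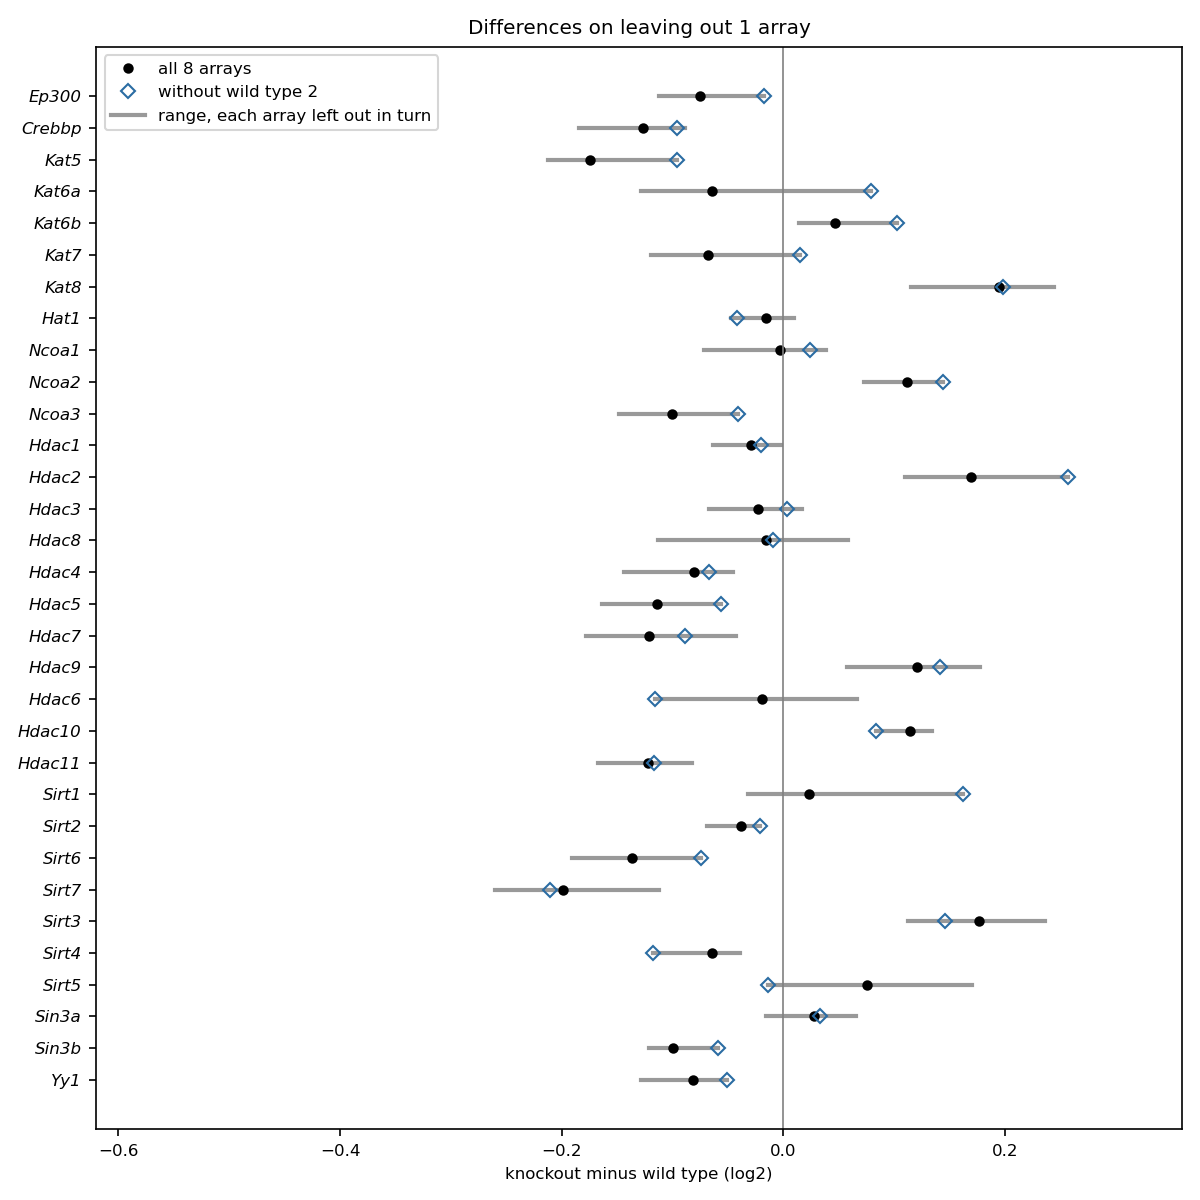
Difference of each gene (horizontal axis, log2 units) with all 8 arrays (filled circle), without wild type 2 (open diamond), and its range when each array was left out in turn (grey bar). The diamonds of Sirt1 (0.16), Kat6a (0.08) and Hdac2 (0.26) lie farther right than the circles (0.02, -0.06 and 0.17).

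Complex partners, cofactor supply and regulators of these enzymes were read in 8 lists with 145 entries, of which 142 were measured. With p adjusted over all genes, 0 of the 142 passed a 5% false discovery rate. Of the 142 genes 69 were higher and 73 lower, with a median of -0.0050. An unadjusted limma p under 0.05 was found for 6 of the 142, against 5.73% of all genes. Subunits that hold HDACs in their complexes were higher in 16 and lower in 14 of 30 cases, led by Gps2 of the NCoR complex (-0.16) and Brms1 of the SIN3 complex (0.17). MYST complex subunits were higher in 18 and lower in 11 of 29 cases, led by the HBO1 partner Jade2 (0.17) and Ruvbl1 (0.22). Acetyl-lysine readers were higher in 7 and lower in 8 of 15 cases, led by Cecr2 (0.26) and Atad2 (0.11).

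Coactivator partners were higher in 4 and lower in 10 of 14 cases (median -0.09). Nrip1, which encodes the corepressor RIP140 of nuclear receptors, averaged 7.25 ± 0.08 in knockouts and 7.51 ± 0.11 in wild types without overlap (difference -0.26, limma adjusted p = 0.836). Crtc1 differed by -0.15. Groups did not overlap for 7 of the 142 genes in the 8 lists, among them also Jade2, Qprt and Camk2b, against 3.62% of all genes. Genes of acetyl-CoA supply were higher in 1 and lower in 8 of 9 cases (median -0.12). Their list means overlapped, at 6.59 to 6.88 in knockouts and 6.72 to 7.00 in wild types. The citrate lyase gene Acly was at -0.21 (limma adjusted p = 0.861) and the acetyl-CoA transporter gene Slc33a1 at -0.18. Kinases, 14-3-3 proteins and MEF2 factors that control class IIa HDACs were higher in 7 and lower in 14 of 21 cases (median -0.06). Their list means did not overlap, at 7.464 to 7.508 in knockouts and 7.513 to 7.608 in wild types. The 14-3-3 zeta gene Ywhaz was at -0.30 and Camk2b at -0.17 (limma adjusted p = 0.859 and 0.861).

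In the NAD list 11 genes were higher and 5 lower, with Nmrk2, the muscle nicotinamide riboside kinase, at 0.35 and Qprt at 0.24 (limma adjusted p = 0.859 and 0.861). Of the 8 genes tied to class IIa HDACs in denervated muscle 5 were higher and 3 lower, with Musk at -0.75 (limma adjusted p = 0.538) and Myog at 0.21.

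Markers of the muscle's cell types were checked beside these values. Muscle-fibre markers were high on every array (mean of 8 genes 12.03 to 12.10 in knockouts and 12.06 to 12.16 in wild types). Macrophage markers were higher in knockouts for 12 of 13 genes, with list means of 5.85 to 6.52 in knockouts and 5.68 to 5.83 in wild types and no marker at 0. Erythroid markers were higher for 4 of 4 measured genes, with list means of 5.66 to 5.91 in knockouts and 5.47 to 5.63 in wild types. Schwann cell markers were lower for 4 of 5 measured genes (median -0.24), with list means of 5.53 to 6.06 in knockouts and 5.50 to 6.56 in wild types. List means did not overlap between the groups for the macrophage and erythroid markers and overlapped for the other marker lists. In limma 0 markers passed a 5% false discovery rate. An unadjusted limma p under 0.05 was found for 5.73% of all genes. Among the markers it was found for 6 of 13 macrophage and 2 of 4 erythroid genes. It was also found for 1 of 5 Schwann cell genes and 1 of 7 lymphocyte or neutrophil genes. Endothelial markers, of the cell type in which Hdac7 is known, were lower for 7 of 8 genes, with list means of 7.01 to 7.51 in knockouts and 7.11 to 7.49 in wild types. The part of other cell types in the differences given above was not tested.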

How the data were processed

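The deposited table holds log2 values that the authors obtained by RMA, with Affymetrix Expression Console named as the software in the submitters' processing notes; version, settings and genome build are not given in the sources used here. Of 35556 deposited clusters 21789 had 1 gene symbol in the array annotation. A gene was represented by its cluster with the highest mean over the 8 arrays, with no filter on dim genes, which left 19938 genes. The genotypes were compared in limma 3.58.1 (lmFit, eBayes; R 4.3.3), p-values were adjusted by Benjamini-Hochberg across all of these genes, and 0.05 was the threshold. Adjusted p-values and intervals come from that fit, which had 6 residual and 6.26 prior degrees of freedom; it was tested on simulated data. The labels call the arrays biological replicates. They share replicate numbers but do not say whether these pair the arrays, so the main fit used no block for the number. Deviations of same-numbered arrays from their group means correlated at 0.09, 0.07, 0.22 and -0.10, which does not settle a pairing. The genes, lists and rule for named genes (all listed genes, Kat2a, and from each list those past the threshold or else the 2 with the smallest p) were chosen with earlier results of these data known. Alternatives were other normalizations, dim-gene filters, cluster choices, priors, array weights, the block, left-out arrays and a 10% threshold. Plots used matplotlib 3.10.9 and Python 3.11.15.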

Additional observations from a re-analysis of the deposited data

Results flagged for a closer look

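Each group of 4 arrays was checked for 1 array far from the other 3, for each of the 32 genes (64 groups). In 4 groups the gap to the nearest array exceeded Dixon's 95% critical share of the group's range, and chance gives about 1 in 20. All 4 were wild types, and the distant array was wild type 2 each time. It was the highest for Kat6a (7.55, others 6.92 to 7.02), Sirt1 (5.86, others 5.27 to 5.34) and Kat5 (6.65, others 6.30 to 6.35). It was the lowest for Sirt4 (5.40, others 5.60 to 5.63). The check was run on these 32 genes alone, so its share over all genes is not known. Over all genes wild type 2 held the highest of the 8 values for 24.5% and the lowest for 21.1%. The cause was not tested.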

How the results depend on the processing

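In each alternative tried the count of listed genes past a 5% threshold, or a 10% one, was 0; the 50% filter on dim genes removed Hdac8 and Sirt7 and left 30, and the other alternatives kept all 32. Their median difference, -0.03 with all arrays, moved by less than the spread between replicates, between -0.07 and -0.02 on leaving out 1 array. Over all genes 3 passed; 11 and 13 did without the dimmest 25% and 50% of genes, 17 with an intensity trend and robust prior, 1 without wild type 2 and knockout 4 together, 0 in a fit of all deposited clusters, 16 at a 10% threshold, and 0 to 5 on leaving out 1 array. With the replicate number as a block 0 of all genes passed and Kat2a, still at -0.66, did not (limma adjusted p = 0.1125). The labels do not say whether the numbers pair the arrays. Knockouts 1 and 3 correlated best with the wild type of their own number, and knockouts 2 and 4 did not. Kat2a also missed the threshold at -0.66 in the fit of all deposited clusters and at -0.64 without wild type 2 and knockout 4, and ranged from -0.68 to -0.64 on leaving out 1 array. Of 606 differences under alternatives 36 changed sign, all for genes within 0.076 of 0. The dim-gene filters, the intensity trend, the block and the fit of all deposited clusters leave each difference as it was. The mean over clusters can move only Hdac1 and Hdac4. Many of the 606 therefore could not change sign, and the count does not measure how stable the signs are. With array weights Kat6a was at 0.016 and Kat7 at 0.0033. Ncoa1 and Hdac3 were at 0.030 and 0.011 after quantile normalization and at 0.027 and 0.0031 after cyclic loess, which put Hat1 at 0.0021. The mean over clusters put Hdac1 at 0.043. Without wild type 2 and knockout 4, Kat6a was at 0.024, Hdac1 at 0.0001 and Sin3a at -0.0097. On leaving out 1 array the ranges crossed 0 for Kat6a (-0.13 to 0.079), Kat7 (-0.12 to 0.015), Hat1 (-0.047 to 0.0097), Ncoa1 (-0.071 to 0.038), Hdac3 (-0.067 to 0.017), Hdac8 (-0.11 to 0.058), Hdac6 (-0.12 to 0.067), Sirt1 (-0.032 to 0.16), Sirt5 (-0.013 to 0.17) and Sin3a (-0.016 to 0.066). The causes were not tested. Detection calls were not used here, so the depth of each signal over background is unknown.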
